A study of Drosophila melanogaster with 23 samples.

Results

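The genes described here are the annotated long noncoding RNA (lncRNA) genes of Drosophila melanogaster that gave 5′-end signal in staged embryos. They were chosen by symbol, as the genes whose FlyBase symbol starts with lncRNA: or, for annotated antisense transcripts, asRNA:, with roX1, roX2 and bxd left out. A gene was kept where it reached at least 5 RPM, its 5′ ends scaled to the reads of the library, in any collection window. Of 10622 genes in the gene table, 187 carried such a symbol and 132 of these passed the limit, 102 with the lncRNA: and 30 with the asRNA: prefix, while 55 stayed below it. The limit uses the highest level of each gene, so the highest levels given here describe how the genes were chosen and were not tested. Just inside it stood CR43883 with 5.05 RPM, CR43928 with 5.08 RPM and CR43440 with 5.13 RPM, each on 3 or 4 reads, and just outside it CR43859 with 4.96 RPM, CR43704 with 4.86 RPM and asRNA:CR44019 with 4.78 RPM, on 12 to 17 reads. The lncRNA: prefix is left off gene names from here on.

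The samples were whole embryos of the strain y; cn bw sp, the reference genome strain, collected from population cages in 23 consecutive windows of 1 hour from 0-1 h to 22-23 h after egg laying, as the second biological replicate of a time series. There was no treatment and no mutant group, and every window is 1 library of pooled embryos, so no window has a replicate. RAMPAGE, the assay used, sequences the 5′ ends of cDNAs that reach the cap of the RNA, and neighbouring start sites are grouped into transcription start site clusters (TSCs), each taken as 1 promoter. A level is therefore a count of 5′ ends and does not grow with transcript length. In whole embryos, a change in the number of cells that make an RNA and a change in the RNA per cell cannot be told apart.

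Long noncoding RNAs are transcribed by RNA polymerase II, capped and usually spliced, but code for no long protein. In the fly embryo some are processed into microRNAs, some lie in the Hox clusters and are transcribed through regulatory DNA, some run antisense to coding genes, and others form nuclear bodies. For most genes with a CR number no function is known.

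The 23 libraries held 83864003 reads in TSCs, from 286206 at 5-6 h to 14705005 at 1-2 h, the median being 2664024. In the shallow libraries of 5-6 h and 22-23 h, 1 read made 3.49 and 2.63 RPM and a count of 0 allowed a level of up to 10.5 and 7.88 RPM, while at 1-2 h the figures were 0.068 and 0.204 RPM. In 35 of the 132 genes the highest window rested on fewer than 10 reads, which included all 11 genes that were highest at 5-6 h and 5 of the 10 that were highest at 22-23 h. Summed stage markers followed the labels. The maternal list (bcd, osk and pgc) was highest at 0-1 h with 1613 RPM and the blastoderm list (eve, ftz, twi and sna) at 3-4 h with 2978 RPM. The late cuticle list (Edg78E and Cpr47Eg) was highest at 21-22 h with 50375 RPM, nearly all of it Cpr47Eg (50339 RPM). Single genes could differ from their list, with bcd highest at 1-2 h, eve at 2-3 h and Edg78E at 18-19 h (266 RPM). None of the 6 chorion and 3 yolk protein genes looked for was in the gene table. Of the maternal list, nos was also absent from it, so absence there does not show that the RNA was missing.

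A property of the deposited tables bears on many of these levels. Of the TSCs in the series, 588 positions were listed under more than 1 gene with identical coordinates, and their reads counted for each gene. This touched 19 of the 132 lncRNA genes, and in 14 (10.6%, against 4.8% of all 9666 genes that passed the same limit) at least 50% of the reads came from TSCs that another gene on the same strand also held. In 10 of the 14 it was all of the reads. These TSCs carried 67.3% of all reads of the lncRNA genes. Reads in a shared TSC cannot be assigned to 1 gene. Most of the level of these 14 genes therefore cannot be told apart from signal of the neighbouring gene. Gene totals can still differ, as for CR44133 (934 reads) and srp (6175 reads). The other 118 are called genes with their own start sites below.

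The 14 genes with shared start sites include 7 of the 25 genes that reached 100 RPM. CR42862 reached 12816 RPM at 20-21 h, but 99.9% of its reads lay in TSCs that were also listed under CG33229, which is given as 12800 RPM in the same window. CR44092 (589 RPM at 3-4 h) shared its start sites with mask, CR33963 (567 RPM at 8-9 h) with CkIalpha, Sec16 and Tis11, CR43900 (515 RPM at 2-3 h) with Cam, the calmodulin gene, and CR42549 (315 RPM at 9-10 h) with mura. For asRNA:CR44093 (206 RPM at 4-5 h) 94.8% of the reads were shared with Wdr33, and for CR44097 (103 RPM at 0-1 h) all of them with CG6000. The lower ones were CR43241, shared with CG42748, asRNA:CR44192 with Fancl, CR43958 with Tdg, CR44133 with srp, CR32194 with CG34253, CR33987 with tio, and asRNA:CR44179 with CG33494, whose highest windows ranged from 7.3 to 54.5 RPM.

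The lncRNA genes were expressed at lower levels than genes at large, within a choice that itself used the highest level. Their median highest level was 21.3 RPM, and 19.9 RPM in the 118 genes with their own start sites, against 60.5 RPM over all 9666 genes. Of the 132, 100 reached 10 RPM, 25 reached 100 RPM and 4 reached 1000 RPM. With their own start sites, 18 reached 100 RPM and 3 reached 1000 RPM, namely CR43887, marge and CR43314. Those 3 held 46.7% of the reads of the 118 genes.

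**Figure D1:**
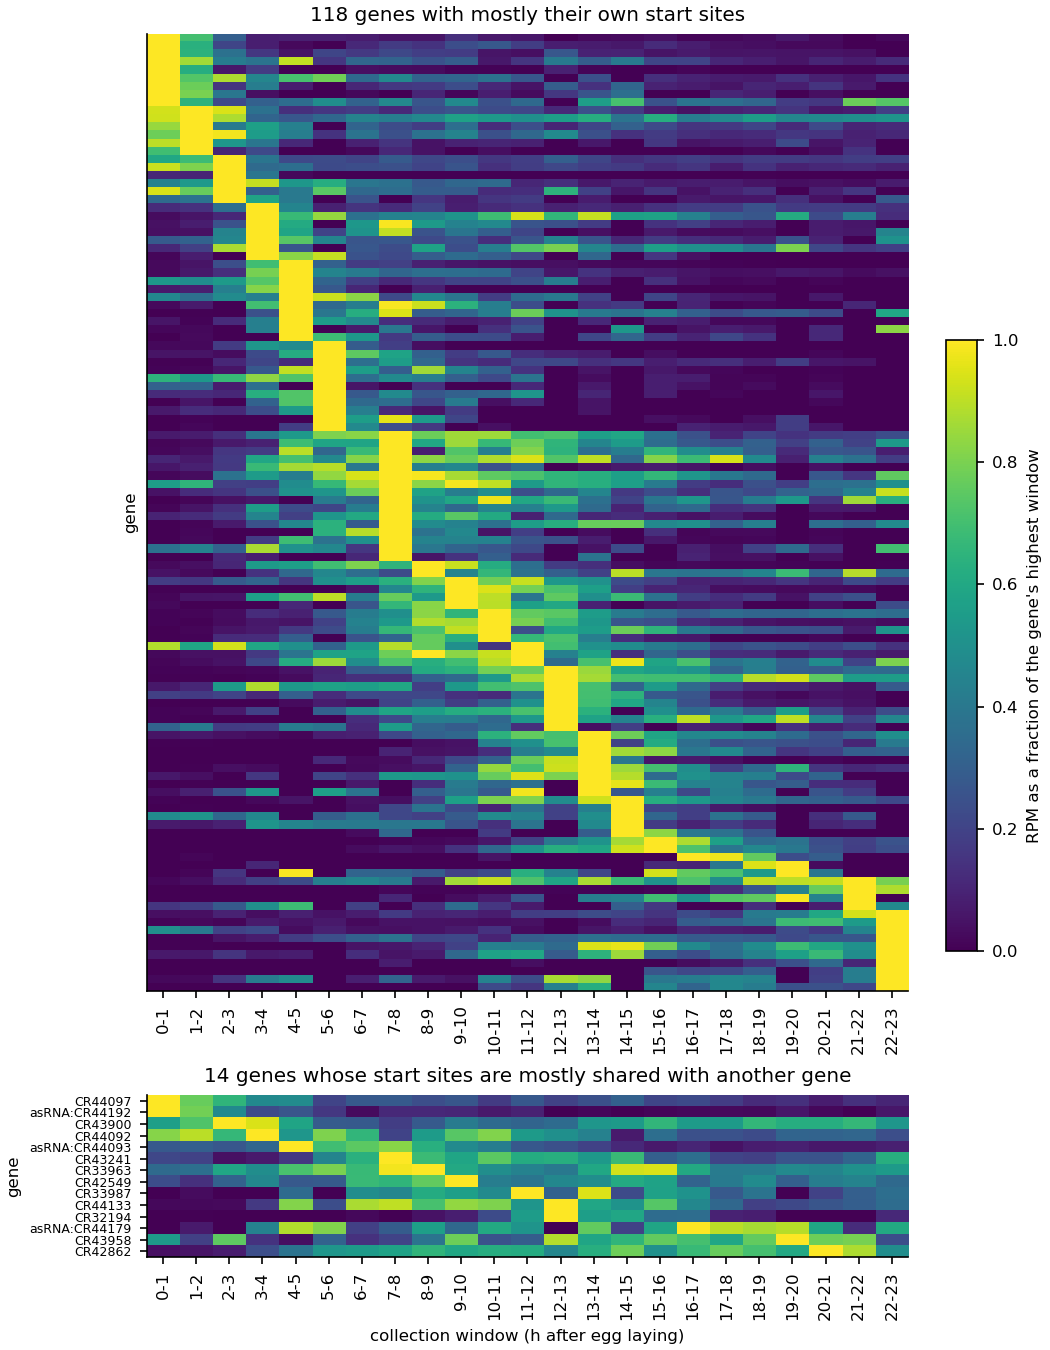
Level in each of the 23 collection windows (x axis, hours after egg laying) of the 118 lncRNA genes with their own start sites (upper panel) and the 14 whose start sites are mostly shared with another gene (lower panel), 1 row per gene, as a fraction of the gene's highest window and ordered by that window. Highest windows occur at nearly every stage, and the columns of 5-6 h, 7-8 h and 22-23 h hold 11, 17 and 10 of all 132.

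Every phase of embryogenesis had lncRNA genes at their highest level, though in unscaled RPM only 3 were highest at 17-20 h. These were CR43440 and CR43611, each on 4 reads, and CR43958, which shares its start site with Tdg. The highest window lay at 0-8 h in 71 genes (53.8%, against 52.9% of all genes), at 8-16 h in 41 (31.1%, against 23.2%) and at 16-23 h in 20 (15.2%, against 24% of all genes). With their own start sites the counts were 65, 36 and 17. This split depends on scaling. The TMM factors, which rescale each library so that most genes stay level, ran from 1.32 at 7-8 h to 0.533 at 17-18 h and so raise late windows relative to early ones. After this rescaling the counts were 60, 38 and 34 of 132, and 46.2%, 18.3% and 35.6% of all genes. Under either scaling the 8-16 h share was higher, and the 16-23 h share lower, in the lncRNA genes than over all genes, a description with no test.

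Most lncRNA genes changed over time. The test asked whether a smooth curve over the 23 windows described log2(RPM + 1) better than a constant, and since each window is 1 library, its error is the scatter of libraries around the curve. Of the 129 lncRNA genes with a mean of at least 1 RPM, whether or not they reached 5 RPM in a window, 122 were called (94.6%), where 92.2% of all 9538 genes tested were. A call was thus close to the background of the series. With edgeR on the recovered reads, 119 were called, against 86.2% of all genes. In the 122 called genes the fitted range, the highest minus the lowest point of the curve, had a median of 3.39 on the log2 scale, and the range over the 129 tested had a median of 3.24 against 2.74 over all genes tested. The gap between these medians depends on the pseudocount, with 4.01 against 3.07 when 0.5 was added and 2.27 against 2.2 when 3 was added. The 7 members not called were CR32218, CR44331, asRNA:CR43903, CR44218, noe, CR43461 and asRNA:CR43609, with adjusted p from 0.0616 to 0.551.

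The genes highest in the first hours, when the embryo still lives on RNA from the mother, were led by CR43973 among those with their own start sites. CR43973 (FBgn0264704, main TSC at 3L:15092601-15092777, minus strand, release 5) lies antisense to Ctps, which encodes CTP synthase. It stood at 331, 356 and 336 RPM from 0-1 h to 2-3 h, at 133 RPM at 3-4 h and at 48.2 RPM at 4-5 h, and then between 16.1 and 94.4 RPM. The drop within 2 windows was outside the counting error, since the interval at 1-2 h was 347 to 366 RPM on 5239 reads. Its fitted range was 4.12 on the log2 scale (SE 0.48, limma adjusted p = 3.45e-07).

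CR30055 (FBgn0050055, main TSC at 2R:8476666-8476861, plus strand) overlaps the start of Sin3A, which encodes a corepressor of transcription, on the opposite strand. Its level was 194, 209 and 183 RPM in the first 3 windows, lowest at 4-5 h with 57.1 RPM, and 69.9 to 130 RPM in the windows that followed. It was among the genes least restricted in time, with a fitted range of 1.55 (SE 0.33, adjusted p = 0.00266), and after TMM rescaling its highest window moved to 18-19 h. Sin3A was itself highest at 1-2 h with 1332 RPM, but over the 23 windows the pair had a correlation of only 0.09.

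CR32027, antisense to the transporter gene Indy and overlapping it at the start site, was another gene highest at the start. It fell from 117 RPM at 0-1 h to 81.9, 35.3 and 9.87 RPM in the next 3 windows. A smaller rise followed at 9-10 h, with 15.8 RPM on 65 reads, between 6.76 and 7.87 RPM, and there were no reads at 12-13 h and 21-22 h. The fitted range of CR32027 was 5.02 (SE 0.87, adjusted p = 5.58e-06). asRNA:CR43460, antisense to rdx, was highest at 2-3 h with 197 RPM, after 117 and 135 RPM, and stayed between 26.9 and 76.2 RPM from 3-4 h on.

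CR43887 (FBgn0264479, TSC at 3L:11686227-11686252, plus strand) had the highest level of the genes with their own start sites. It rose from 135 RPM at 0-1 h and 258 RPM at 1-2 h to 1201 and 3466 RPM in the next windows, and to 4986 RPM at 4-5 h (95% interval 4832 to 5144). It then fell to 1555 RPM at 5-6 h and 857 RPM at 6-7 h, and no window from 16-17 h on exceeded 74.8 RPM. The 8 best consecutive windows held 90% of its summed RPM, and its fitted range was 8.19 (SE 0.71, adjusted p = 7.96e-11). All of its reads came from 1 narrow TSC, and it overlaps no coding gene. The nearest TSC of another gene was that of Dph1, 1219 bp downstream on the opposite strand.

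The genes whose profiles were most like CR43887, by Pearson's r of log2(RPM + 1) over the 23 windows, were Ilp4, which encodes an insulin-like peptide (r = 0.98), FBgn0029738 (0.964) and CG11050 (0.957). Ilp4 was highest 1 window earlier, at 3-4 h with 1815 RPM. All profiles come from the same 23 libraries.

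CR43856 (TSC at 2L:15012609-15012632, minus strand) was the most confined early gene by entropy among those named here. It stood at 55.7 RPM at 2-3 h and 21.9 RPM at 3-4 h, at 6.05 and 5.71 RPM before and 1.27 RPM after, and it had no reads in 16 windows. Its entropy, which is 0 bits for a gene seen in 1 window and 4.52 bits for one at an equal level in all 23, was 1.57 bits. This gene was singled out after its values were seen.

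Of the genes with their own start sites that were highest at 8-16 h, marge reached the highest level. marge (FBgn0263380, main TSC at 3L:14970663-14970795, minus strand) rose from 432 RPM at 2-3 h to 2219 RPM at 3-4 h, stood between 2294 and 3269 RPM from 4-5 h to 7-8 h, and peaked at 8-9 h at 4060 RPM (3984 to 4137, on 10817 reads). It was still at 3716 RPM at 9-10 h and 2514 RPM at 10-11 h, and fell to 146 RPM at 14-15 h and 7.77 RPM at 21-22 h. It was at or above its 3-4 h level in 8 consecutive windows, which set it apart from the single peak of CR43887. The curve of marge had a fitted range of 7.74 (SE 0.45, adjusted p = 3.14e-15).

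The profiles most like marge were those of CG43355, sala and Inx2, a gap junction innexin, each with r = 0.971. CG43355 and sala are both given as 1256 RPM at 7-8 h. Inx2 was highest at 5-6 h with 199 RPM.

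CR43314 (FBgn0263019, TSC at 2L:11970872-11971108, minus strand) overlaps mir-bft, the bereft microRNA known for bristle formation. It climbed from 13.6 RPM at 0-1 h through 163 RPM at 3-4 h and 643 RPM at 7-8 h to 1292 RPM at 10-11 h (1254 to 1331). From 15-16 h to the end it stayed between 362 and 492 RPM, so that unlike marge it did not go back to its early level. Its fitted range was 6.48 (SE 0.27, adjusted p = 1.66e-15).

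CR30009 (FBgn0050009, TSC at 2R:6151312-6151334, minus strand) rose over the same hours and fell again. It stood at 2.38 RPM at 1-2 h, at 80.4 RPM at 5-6 h, at 365 RPM at 8-9 h and at 412 RPM at 10-11 h, and came down to 109 RPM at 14-15 h and 13.1 RPM at 22-23 h. For CR30009 the fitted range was 7.08 (SE 0.34, adjusted p = 4.23e-15).

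CR31781 (FBgn0051781, TSC at 2L:16869346-16869511, plus strand) came later than these. It was at or below 3.49 RPM in every window before 7-8 h, reached 53.9 RPM at 10-11 h and 372 RPM at 12-13 h, and peaked at 15-16 h at 916 RPM (884 to 949). It fell to 520 RPM at 17-18 h and stood between 175 and 349 RPM from 18-19 h on. Its fitted range was 8.53 (SE 0.35, adjusted p = 2.21e-16), and its nearest TSC of another gene, 7885 bp away on the same strand, was that of another lncRNA gene, CR43858.

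**Figure D2:**
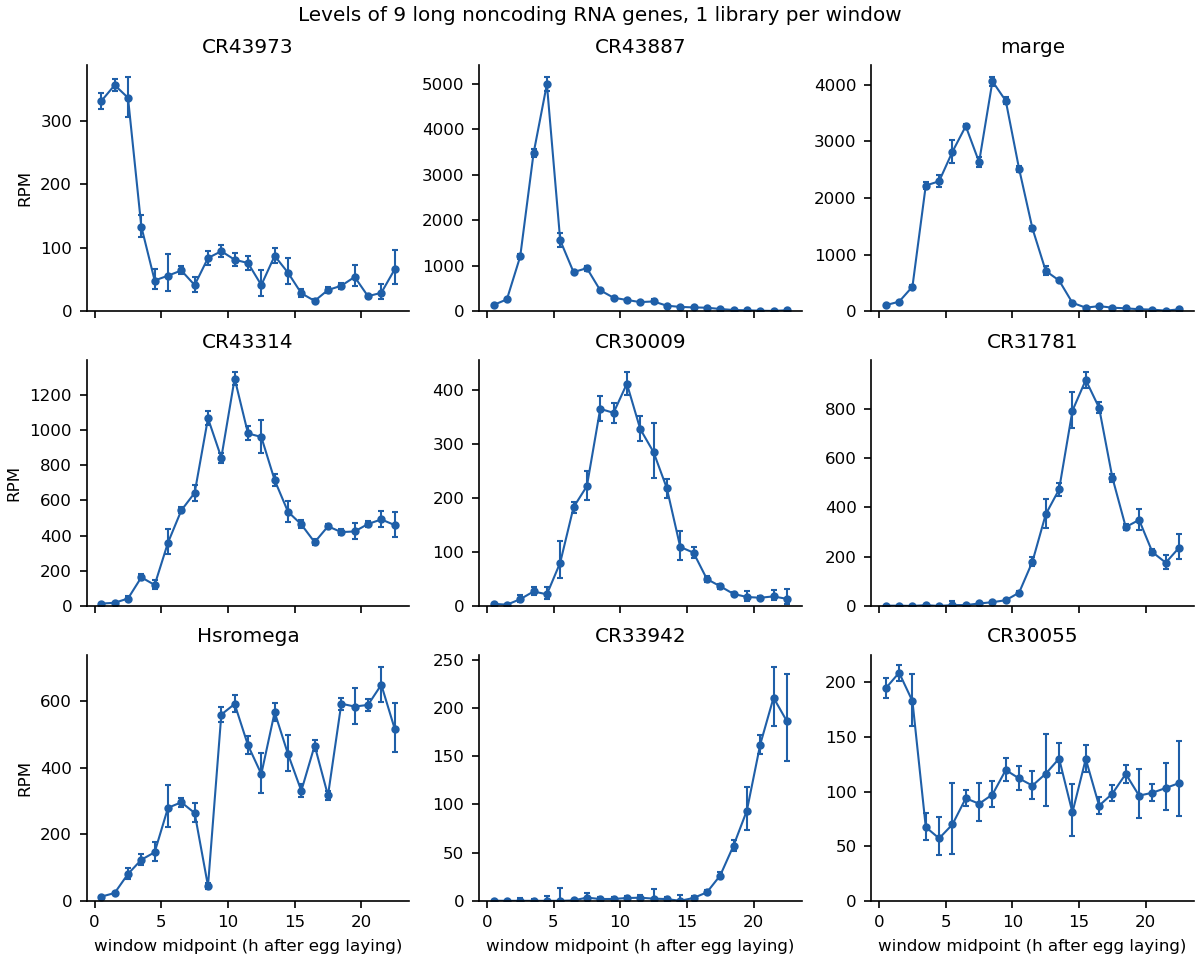
RPM (y axis, linear, own scale per panel) against the midpoint of the collection window for 9 lncRNA genes with their own start sites. Points are single libraries and bars are exact 95% counting intervals. The highest windows run from 1-2 h (CR43973, 356 RPM) to 21-22 h (CR33942, 211 RPM), and Hsromega shows a single low point of 44.7 RPM at 8-9 h.

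In unscaled RPM, few lncRNA genes with their own start sites were highest late on a firm count. Of the 17 whose highest window fell at 16-23 h, only 3 had at least 30 reads there, namely Hsromega, CR33942 and CR43952. After TMM rescaling 30 were highest at 16-23 h, and 14 of these had at least 30 reads there. CR33942 (FBgn0062961, TSC at 2R:14598888-14598945, plus strand) was low early and rose late. It had no reads in 6 windows and at most 3.35 RPM before 16-17 h, then 8.8, 26.3, 57.3, 93.7 and 162 RPM in successive windows and 211 RPM at 21-22 h (182 to 243), with 186 RPM at 22-23 h. Its fitted range of 9.08 (SE 0.83, adjusted p = 3.82e-11) was the largest of the called lncRNA genes, and the TSC of Vps51 lies 485 bp upstream on the opposite strand. CR43952 was far weaker, with 5.42 RPM at 16-17 h on 32 reads and no reads in 16 windows.

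Hsromega (FBgn0001234, main TSC at 3R:17122297-17122362, plus strand), the heat shock RNA that organizes omega speckles in the nucleus, was broad rather than late. It rose from 12.6 RPM at 0-1 h to 296 RPM at 6-7 h and stood between 317 and 649 RPM in every window from 9-10 h on, with the highest at 21-22 h and, after TMM rescaling, at 20-21 h. The 8-9 h library was an exception with 44.7 RPM on 119 reads, between 264 RPM before and 560 RPM after. The gap was in the main TSC, with 28.5 RPM there, while the next TSC of the gene, at 3R:17123521-17123707, had 8.26 RPM, between 6.7 and 11.9 RPM in the neighbouring windows. The fitted range of Hsromega was 5.01 (SE 0.72, adjusted p = 5.2e-07).

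Genes that overlap an annotated microRNA on the same strand form a group of 16, in part primary transcripts of well-studied microRNAs. All 16 were called time-dependent, where 92.2% of all genes were, with a median fitted range of 3.71, and their median highest level was 66.2 RPM against 21.3 RPM over all 132. The highest window lay at 0-8 h in 5, at 8-16 h in 8 and at 16-23 h in 3.

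CR43650, which holds mir-8, the fly member of the miR-200 family, rose steadily. It stood at 1.82 to 3.84 RPM through 3-4 h, at 60.9 RPM at 6-7 h, at 130 RPM at 8-9 h and at 212 RPM at 12-13 h (171 to 260), and held 61 to 90.5 RPM from 17-18 h on. Its fitted range was 6.76 (SE 0.31, adjusted p = 2.83e-15).

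CR31044, with mir-279 and mir-996, which act in sensory neuron specification, peaked at 9-10 h (133 RPM) and dropped to 12 RPM at 16-17 h. CR43651, with mir-14, came later, at 84.2 RPM at 13-14 h against 5.51 RPM or less before 5-6 h. CR43459, with mir-277 and mir-34, had no reads in any window before 6-7 h, reached 54.4 RPM at 15-16 h and ended at 13.1 RPM. The order of CR43651 and CR43459 turned with scaling, since after TMM rescaling CR43651 was highest at 17-18 h (76.3, against 74.8 at 13-14 h) and CR43459 still at 15-16 h (67.3).

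CR43836, with mir-31b, was the exception among the microRNA genes above 100 RPM in being highest in the first windows. It stood at 129, 113 and 140 RPM at 0-3 h, at 48.3 RPM at 3-4 h and at 10.6 RPM at 17-18 h. CR43626, with mir-282, followed the same course at a lower level, from 14 RPM at 0-1 h to 0.548 RPM at 3-4 h. CR43857, with mir-275, was high at both ends, with 19.5 RPM at 0-1 h, no reads at 12-13 h, and 17.8 then 39.4 RPM in the last 2 windows, the final value on 15 reads.

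CR42651, with mir-10, and CR44206, with mir-184, were broad. CR42651 stood at 64.2 RPM at 3-4 h and 73 RPM at 12-13 h with 13.5 RPM at 8-9 h between them, and CR44206 lay between 20.2 and 59.5 RPM from 3-4 h to 18-19 h. CR42721, with mir-993, was at or under 1.27 RPM before 8-9 h and highest at 14-15 h with 23.6 RPM on 14 reads.

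**Figure D3:**
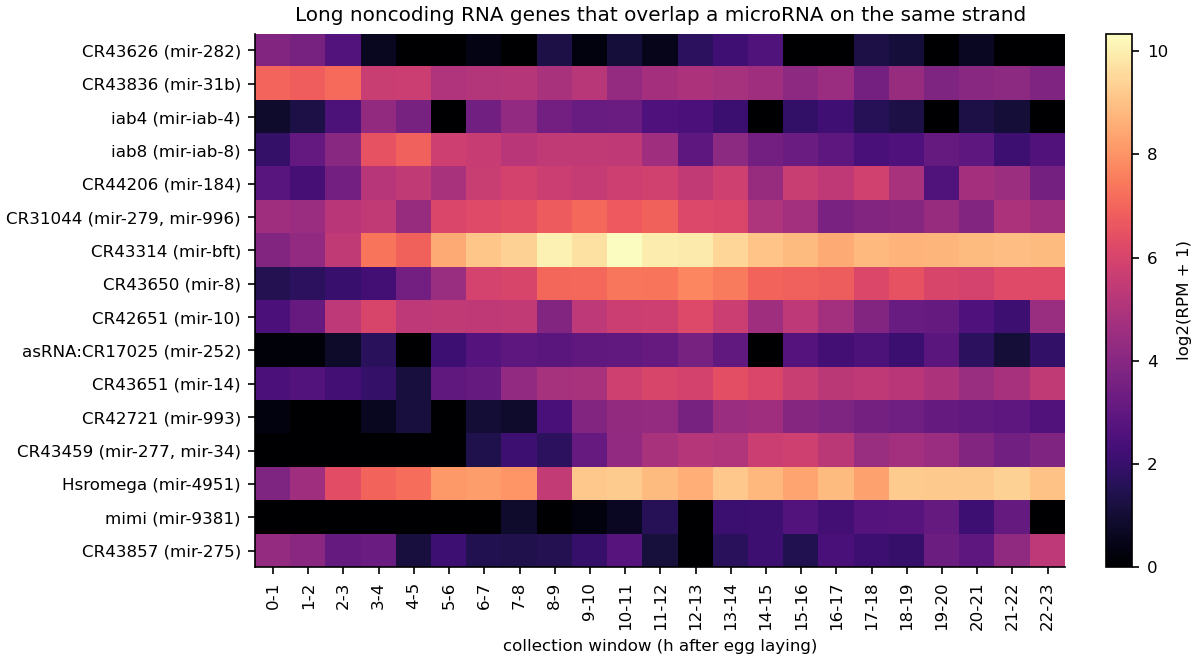
log2(RPM + 1) (colour) in each collection window (x axis, hours after egg laying) of the 16 lncRNA genes that overlap a microRNA on the same strand, given in parentheses, ordered by highest window. CR43314 and Hsromega are the brightest, with highest levels of 1292 and 649 RPM, and CR43836 and CR43626 are highest in the first windows.

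Of the noncoding RNAs of the bithorax complex on the list, iab4 and iab8 were measured. The genes hold, on opposite strands, the microRNAs that repress Ubx and neighbouring Hox genes. iab8 peaked at 4-5 h at 116 RPM (93 to 142), after 2.78 RPM at 0-1 h and 92.1 RPM at 3-4 h, stayed between 37.7 and 52.4 RPM from 5-6 h to 10-11 h, and lay between 3.33 and 16.8 RPM from 12-13 h on. iab4 peaked at 3-4 h at 18.6 RPM (12.9 to 26.1) and again reached 18.4 RPM at 7-8 h, and had no reads in 4 windows. Both were called (fitted range 3.94, SE 0.6, adjusted p = 3.34e-08 for iab8, and 2.87, SE 0.85, adjusted p = 0.00384 for iab4), and their main TSCs stand back to back 1366 bp apart. RNA from these TSCs runs in opposite directions, away from the gap between them. The main iab8 TSC, with 103 RPM at 4-5 h, thus does not transcribe across iab4. Its level cannot be read as that of the microRNA precursor. The correlation of the iab4 and iab8 levels over the windows was 0.68.

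The start sites of iab8 differed in time. The most used TSC, at 3R:12674244-12674552, held 42% of its reads, stood at 72.4 and 103 RPM at 3-4 h and 4-5 h, and was at or below 1.46 RPM from 12-13 h on. The second, at 3R:12748806-12748960, lies 74254 bp upstream of it on the minus strand. It was at or below 4.39 RPM before 6-7 h, highest at 6-7 h with 17.2 RPM, and still at 5.25 RPM at 22-23 h. From 16-17 h on the upstream start gave more than the other in every window.

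Of the other genes that bear a name, cherub, known from neural stem cell tumours, was at or under 2.43 RPM through 9-10 h, rose to 22.7 RPM at 10-11 h and peaked at 13-14 h at 51.4 RPM (43.3 to 60.6). It then stood between 5.55 and 31.4 RPM, and its fitted range was 5.42 (SE 0.44, adjusted p = 8.88e-11). Irar, antisense to the insulin receptor gene InR, rose toward hatching, from at most 17.1 RPM before 18-19 h to 30.1, 30.8, 43.8, 68.8 and 73.5 RPM in the last 5 windows, the last on 28 reads. The fitted range of Irar was 4.26 (SE 0.48, adjusted p = 3.45e-09).

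The remaining named genes were weak. Of the list of genes named by a phenotype or process only cherub and noe were among the 132, and of the list of snoRNA host genes (Uhg) none was. The 1 gene with an annotated snoRNA inside it, CR42491, which overlaps the ribosomal protein gene RpL22, was highest at 7-8 h with 101 RPM, on 121 reads. The alphagamma-element transcript CR32865, from a heat shock locus, was highest at 7-8 h with 9.22 RPM on 11 reads, and mimi at 21-22 h with 7.77 RPM on 7 reads. noe reached 6.2 RPM at 13-14 h on 17 reads. It was not called by limma (adjusted p = 0.272) but was by edgeR (adjusted p = 0.0072).

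By position in the current annotation, 57 of the 132 genes overlap no coding gene, 59 overlap one on the opposite strand and 22 one on the same strand, 6 of these doing both. The 57 free-standing genes had a median highest level of 28.9 RPM, and all 51 of them that were tested were called (92.2% over all genes), with a median fitted range of 4.03. The 59 antisense genes had a median highest level of 14.3 RPM. Of these 40 (67.8%) were highest at 0-8 h, 11 (18.6%) at 8-16 h and 8 (13.6%) at 16-23 h, against 52.9%, 23.2% and 24% of all genes. After TMM rescaling the shares were 59.3%, 18.6% and 22% against 46.2%, 18.3% and 35.6%, and none of these differences was tested. Some of the early maxima rested on few reads in shallow libraries, with 4 for asRNA:CR43470 and 2 for asRNA:CR43723 at 5-6 h, and 5 for CR34052 at 4-5 h. The shares were not compared at equal depth. Of 55 antisense genes tested, 50 were called, a share close to that over all genes, with a median fitted range of 3.15. By the asRNA: prefix alone, 26 of 28 tested were called.

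Antisense genes and the coding genes they overlap varied widely in how they ran together. In 37 such pairs with at least 200 reads on both sides, r of log2(RPM + 1) over the 23 windows, taken from the same libraries, had a median of 0.15 and ran from -0.8 to 0.88. It was at least 0.5 in 14 pairs and at or below -0.5 in 5, and 4 pairs had the same highest window. These counts include genes whose start sites are mostly shared with another gene on their strand. They are asRNA:CR44192 with Npc2e (r = -0.78), asRNA:CR44179 with CG5112 (-0.45), CR44097 with Hsp68 (-0.32) and asRNA:CR44093 with CG2182 (0.55). In these pairs r cannot be read as that of the antisense RNA alone.

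asRNA:CR42860 and sls, which encodes the titin-like protein of muscle, had the highest value, 0.88. asRNA:CR42860 was at or below 3.81 RPM through 4-5 h, reached 132 RPM at 12-13 h and stood between 73.2 and 123 RPM from 13-14 h on, while sls was at 13.7 RPM when the antisense gene was highest and reached 112 RPM at 19-20 h. The maximum of asRNA:CR42860 rested on 58 reads, and after TMM rescaling it moved to 18-19 h. The antisense gene had a fitted range of 7.01 (SE 0.37, adjusted p = 1.11e-14).

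asRNA:CR43889 and Mi-2, a chromatin remodeler, were both highest at 4-5 h (11.4 and 1997 RPM, r = 0.86), though the antisense maximum rested on 9 reads. asRNA:CR43468 and the receptor gene Nmda1 were both highest at 12-13 h (45.6 and 157 RPM), yet r was 0.05. At the other end, CR43264 was highest at 4-5 h with 21.6 RPM where CG15765 had no reads, and CG15765 at 14-15 h with 11.8 RPM where CR43264 had none (r = -0.8). CR43967 (17.5 RPM at 3-4 h) and CG34031 (56.2 RPM at 17-18 h) also ran opposite (r = -0.63). A count of 0 allows up to 3.81 RPM at 4-5 h and 5.05 RPM at 14-15 h.

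The share of reads that fell in lncRNA genes was set by a few of them. For the 118 genes with their own start sites the share was 0.175% at 0-1 h (Wilson 95% interval 0.172 to 0.177), rose to 0.881% at 4-5 h (0.86 to 0.902), was 0.745% at 8-9 h and 9-10 h, and fell to 0.231% at 20-21 h. CR43887 and marge together held 0.728% at 4-5 h. Without both, the share of the others was 0.151% at 0-1 h, 0.153% at 4-5 h, highest at 10-11 h with 0.4%, and 0.228% at 20-21 h. With all 132 the share ran from 0.357% at 0-1 h to 1.73% at 8-9 h and was still 1.61% at 20-21 h, where CR42862 alone held 1.28%. The late part of that curve therefore follows the TSCs listed under both CR42862 and CG33229.

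**Figure D4:**
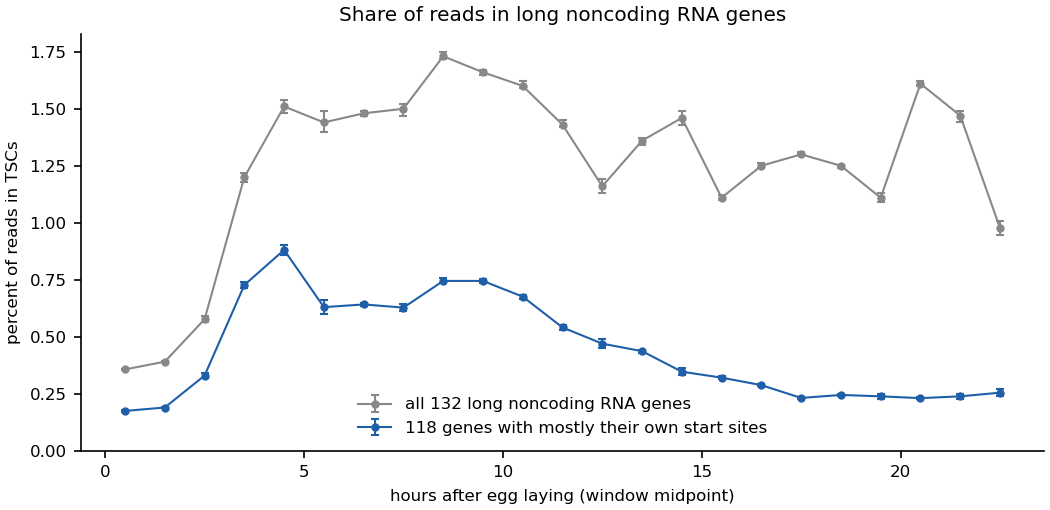
Percent of all reads in TSCs (y axis) that fell in lncRNA genes in each library, against the midpoint of the collection window, for all 132 genes (grey) and the 118 with their own start sites (blue), with Wilson 95% intervals. The blue curve is highest at 4-5 h with 0.881% and ends at 0.255%, while the grey curve is at 0.977% or more from 3-4 h on.

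The number of lncRNA genes at 5 RPM or more in a window was lowest early, 46 of 132 at 0-1 h and at 1-2 h, and highest at 7-8 h with 77, and it was 50 at 21-22 h. After all libraries were thinned to 286206 reads the counts were 45, 41, 71 and 45 in those windows, and the highest was 77, at 9-10 h, so the place of the maximum depends on depth. Over all 9666 genes the share at 5 RPM or more was 65% at 0-1 h and 69.4% at 21-22 h.

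The study called single TSCs that reached 10 RPM developmentally regulated where at least 60% of their expression lay within 8 hours. Here the rule was applied to gene totals past the 5 RPM limit. A gene was called stage-restricted where at least 60% of its summed RPM fell within 8 consecutive windows. This held for 83 of the 132 lncRNA genes (62.9%), against 47.3% of all genes, and for 79 of the 118 with their own start sites (66.9%). The median entropy was 3.87 bits, or 3.77 bits with their own start sites, against 4.12 bits over all genes.

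Depth moves with this comparison, since rarely counted genes look restricted. Among genes with fewer than 100 reads in the series, 88.9% of the lncRNA genes and 95.9% of all genes were stage-restricted, and with 100 to under 300 reads 70.6% and 77.7%. With 300 to under 1000 reads the shares were close, 59% of 39 lncRNA genes and 55.6% of all genes. Above this the lncRNA share was the higher. With 1000 to under 3000 reads it was 50% of 20 lncRNA genes and 40.6% of all genes, and with at least 3000 reads 47.6% of 21 and 32.4%. In this last class 9 of the 14 genes with their own start sites were restricted (64.3%). The small number of lncRNA genes in these upper classes limits the precision of their shares.

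**Figure D5:**
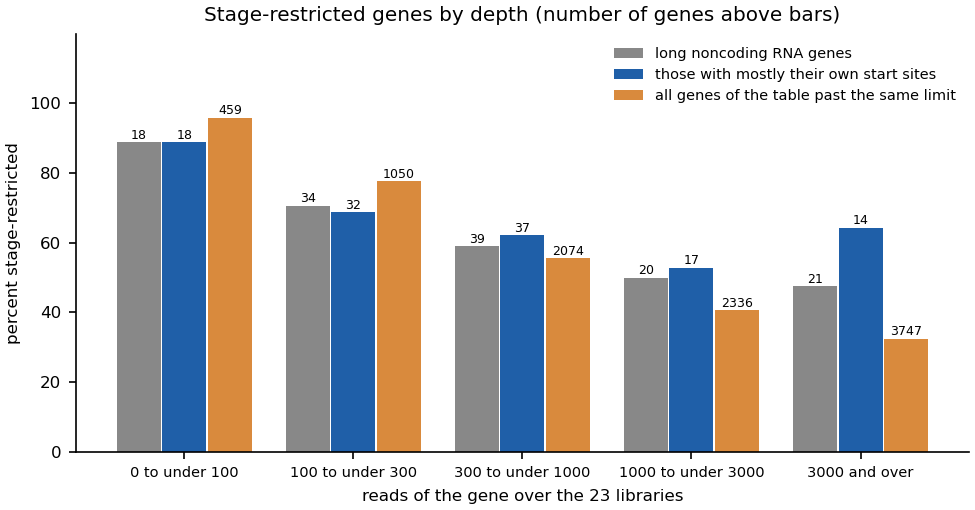
Percent of genes that were stage-restricted (y axis, from 0) by the number of reads of the gene over the 23 libraries, for the 132 lncRNA genes (grey), those with their own start sites (blue) and all 9666 genes that reach 5 RPM (orange), with the number of genes above each bar. The share falls with depth in all genes, from 95.9% to 32.4%, and among genes with at least 3000 reads it is 64.3% in the blue group.

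The start sites of lncRNA genes had a lower median width than those of genes at large, while the upper quartiles were close. The main TSC had a median width of 62.5 bp (quartiles 31.75 and 119) against 84 bp (48 and 117). The lncRNA genes also had fewer reads, a median of 430.5 against 1807.5, and widths were not compared at equal depth. A single TSC was found in 75 genes (56.8%, against 53% of all genes). A second unshared TSC with at least 50 reads and 10% of the gene's reads was present in 21 genes. In 18 of these the TSCs had different highest windows, many of them on few reads. The share over all genes was not counted, so this cannot be called a trait of lncRNA genes.

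CR30055, CR32218, CR43301 and CR43855 were examples. CR30055 had its main start highest at 1-2 h with 185 RPM and the second at 0-1 h with 25.8 RPM. CR32218 had both starts highest at 3-4 h, with 53.2 and 22.5 RPM. In CR43855 the starts were highest at 10-11 h with 12.2 RPM and at 12-13 h with 9.12 RPM, where 1 read made 2.28 RPM. In CR43301 they were highest at 7-8 h with 20.1 RPM, at 1-2 h with 11.6 RPM and at 21-22 h with 7.77 RPM. These examples ranged from starts highest in the same window to starts highest far apart, as in CR43301, a description with no test.

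An opposite-strand TSC of another gene lay within 1000 bp of the main TSC in 61 of the 132 genes (46.2%, against 42.5% of all genes). In 51 (38.6%, against 40.7%) it lay upstream, the arrangement of a divergent promoter pair. The median r of such pairs over the windows was 0.362, against 0.384 over the 3937 pairs of all genes. In these counts the lncRNA genes were close to genes at large.

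The genes were spread over the arms, with 39 on 3R, 26 each on 3L and 2R, 18 on 2L, 16 on X, 5 on the small chromosome 4 and 2 on 2RHet. Those on chromosome 4 made up 3.79% of the lncRNA genes against 0.848% of all genes, and those on X 12.1% against 16.1%, counts that were not tested. Besides CR43958, which shares its start site with Tdg, the chromosome 4 genes included CR44024, highest at 13-14 h with 19.7 RPM, and asRNA:CR44030, antisense to fuss and highest at 7-8 h with 23.5 RPM.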

How the data were processed

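Embryos of 23 hourly windows were barcoded at reverse transcription, pooled and sequenced together, so no library batch separates them. The authors mapped reads with STAR (version not given in the sources used here) to FlyBase release 5.49 (dm3), called TSCs on the pooled series, and deposited RPM per TSC and per gene, scaled to the reads in TSCs of each library. Whole reads were recovered from the deposited RPM: 100% of values were whole within 0.001 reads. Between 0.337% and 0.806% of a library's reads fell in the row without a gene, which entered depth but no test. The deposited file of TSC positions holds a score whose meaning is not stated and which was not used, and a deposited table of aligned scores was not used. Positions are counted from 1 in release 5.

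Symbols were matched for 10253 of 10622 gene IDs. The BDGP6 annotation served for overlaps and names only. No sequence of the files' release was used here. For time dependence, limma 3.58.1 (trend, robust) under R 4.3.3 fitted log2(RPM + 1) on a natural spline with 4 degrees of freedom and tested it by the moderated F, in genes with a mean of at least 1 RPM, with Benjamini-Hochberg adjustment over all 9538 and calls below 0.05. edgeR 4.0.16 and DESeq2 1.42.0 on recovered reads were alternatives. edgeR called 8223 genes. On simulated data with 200 changed genes limma recovered 161 (61 of 100 with a log2 range of 2, and 100 of 100 with 4) with 36 false calls (18.3%), and edgeR 167 with 8 (4.57%). p-values measure the scatter of single libraries around the curve. Intervals are at the 95% level, exact for RPM and Wilson for shares, cover counting error only, and a count of 0 was given a limit of 3 reads. Duplicate treatment is not given in the sources used here.

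The genes and lists were chosen with earlier results of these data known. Named genes were, at 0-8, 8-16 and 16-23 h, the 6 with the highest level on at least 30 reads (5 qualified at 16-23 h) and the 2 with the largest fitted range, all genes with a name, the 3 on either side of the limit, and the 3 most correlated genes of each leading gene. MicroRNA genes, antisense pairs and start sites were described by group, and their examples were chosen after their values were seen. Alternatives covered thresholds, pseudocounts, filters, scaling, thinning (seed 50), spline shape and shallow libraries. Leaving out genes with shared TSCs, and CR43887 and marge besides, was added after seeing the data.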

Additional observations from a re-analysis of the deposited data

How the results depend on the processing

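No paired analysis was possible because each window has 1 sample. Of the counts given above, most stayed within 1.5 times of their value. Under filterByExpr, which asks for reads in most windows, 34 lncRNA genes were tested and 33 called, where the main filter tested 129. The genes highest at 16-23 h numbered 34 after TMM rescaling and 11 when the highest window needed at least 10 reads, against 20. The share of reads in all 132 genes fell to 0.897% at 8-9 h and 0.302% at 0-1 h without CR42862, and to 0.745% and 0.175% without the 14 genes that share TSCs, and to 0.294% and 0.151% without these, CR43887 and marge. Thinning to the shallowest library left 101 of 132 tested genes called (76.5%, against 80% of all genes), and 8 phases in place of the spline 111 (86%, against 88.8%), so that the share lay below that of all genes in both. Of 230 alternatives for 24 named genes, 224 kept direction and call. The calls lost were those of asRNA:CR44179, CR33963 and mimi after thinning, and of CR44092 by edgeR and after TMM rescaling, and edgeR added noe. Depth limits the 5-6 h and 22-23 h windows most: without them 125 genes reached 5 RPM. With 1 library per window, none of these values has a replicate.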

Other observations

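A level far below both neighbouring windows, as in Hsromega at 8-9 h, was looked for in every gene after that value was seen. Windows were compared where the lower neighbour predicted at least 30 reads, and counted where the level was under 1/3 of that neighbour. This held in 711 of 94649 comparisons over all genes (0.751%) and in 6 of 714 over the lncRNA genes (0.84%). Besides Hsromega the lncRNA cases were CR43765 at 8-9 h (5.26 RPM between 63.7 and 46.4), CR43496 at 10-11 h (8.45 RPM between 27.7 and 55.5), CR44092 at 14-15 h (42.1 RPM between 259 and 212), CR32368 at 20-21 h (2.61 RPM between 8.98 and 14.4) and asRNA:CR44192 at 6-7 h (1.2 RPM between 6.99 and 5.03). The neighbouring levels rested on few reads for CR32368 (7 and 13) and asRNA:CR44192 (2 and 6). The 6 cases fell in 5 different libraries, and with 1 library per window they cannot be told apart from real changes.

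Over all genes the share of such cases per library ran from 0.26% at 5-6 h to 2.42% at 12-13 h (52 of 2148), followed by 2.04% at 2-3 h, 1.52% at 7-8 h and 1.34% at 17-18 h. A search for the profiles most like Hsromega, added after its values were seen, gave CG32280 (r = 0.886), Mrp4 (0.885) and p130CAS (0.876) over the 23 windows. CG32280 is also among those most like CR42862 (r = 0.949), after CG33229, whose r of 1 reflects the TSCs listed under both, and before ps (0.947).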
